A study of Mus musculus with 35 samples.

Results

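The genes described here encode the proteins of the cytosolic ribosome. They were chosen by symbol alone, as Rps or Rpl followed by a number with an optional letter suffix, or as Rplp0, Rplp1 and Rplp2, with pseudogene symbols ending in -ps and the Rps6k kinases left out. The rule found 88 of the 44853 gene symbols of the induction table, 35 named Rps (small subunit) and 53 named Rpl or Rplp (large subunit). Of these, 82 are annotated as protein coding and 6 as pseudogenes (Rpl32l, Rpl6l, Rps12l1, Rps3a2, Rps3a3 and Rps4l). Levels are in TPM, length-scaled transcript units that sum to 1000000 in each library. Testing required a group mean of 1 TPM or more in some group, which left 86; Rpl32l, with 0.89 TPM in its highest library, and Rps12l1, at 0 TPM in every library, were not tested. Setting aside the 6 pseudogenes and the 6 protein coding variants Rpl3l, Rpl7l1, Rpl10l, Rpl22l1, Rpl39l and Rps27l left 76 main ribosomal protein genes, the set over which medians are given.

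Poly(A) RNA was sequenced from KH2 mouse embryonic stem (ES) cells of mixed C57BL/6 x 129/Sv genotype, every one carrying a transgene that expresses GATA6 when doxycycline (Dox, 1 µg/mL) is added; untreated cells (0 h) and cells at 16, 24, 48, 72, 96 and 168 h of Dox gave 3 libraries each. All were grown with serum and LIF on mitomycin C-inactivated embryonic fibroblast feeders, which were removed by adsorption before lysis. The comparison line was XEN (extra-embryonic endoderm) cells, 2 libraries of the wild-type CD1 line X10, untreated and cultured without LIF, so that strain, culture and cell type cannot be told apart in any comparison with them. In a second experiment the same inducible ES cells received Dox together with siRNA against Oct4 (siOct4) or control siRNA (siCTL) for 48 h, 6 libraries each. The siRNA experiment used 1 clone of the inducible cells, G6.3, and the cassette of KH2 cells is a single-copy transgene switched by Dox, not the cell's own Gata6 gene.

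Labels and most markers went together. Gata6 rose from 0.264 TPM at 0 h to 344 TPM at 168 h, and the summed level of 10 pluripotency markers fell from 9631 to 9886 TPM at 0 h to 1934 to 2730 TPM at 168 h and 104 to 111 TPM in XEN cells. Dppa5a held the largest part of that sum at 0 h (6163 TPM). At 168 h 9 of the 10 were lower past adjusted p and 1, Klf4, was higher (75.6 to 133 TPM). The summed level of 14 primitive endoderm (PrE) markers, each higher at 168 h past adjusted p, was 151 to 248 TPM at 0 h, 33776 to 34634 TPM at 168 h and 15844 to 15960 TPM in XEN cells. Against 0 h, 13 of the 14 were higher in XEN cells past adjusted p and 1, Amn, was lower (0.41 against 3.27 TPM). Of 11 feeder fibroblast markers 8 were higher at 168 h than at 0 h past adjusted p, with summed levels of 176 to 370 TPM against 103 to 224 TPM, and Lum and Dcn were below 1 TPM in every group but 168 h. The part of residual feeder RNA in the results below was not tested.

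Ribosomal proteins assemble with ribosomal RNA in the nucleolus into a small and a large subunit, each protein being needed in about equal numbers. In vertebrates their mRNAs share a terminal oligopyrimidine (TOP) start, a C followed by a run of C and T, through which mTORC1 and LARP1 set their translation and stability together. Most members have many processed pseudogenes, intronless copies whose reads are hard to separate from those of the source gene, and a few have expressed variants, several of them known from the male germ line. Ribosome production is costly for a cell and is tied to its growth and division.

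The TOP start was looked for in RefSeq windows on GRCm38.p6, in which 62 of the 82 protein coding members had an entry. A C within 5 bases of the annotated start, on the gene's own strand and followed by C or T without a break, gave a run of at least 8 letters in 21 of 62 members (33.9%), against 5.88% of the 10914 tested genes with a window. For a run of at least 5 letters the counts were 29 of 62 (46.8%) against 24% of all. A match describes these letters only, since an annotated start can lie some bases from the start used in these cells. The windows below are shown because their genes carry the results that follow; each holds 10 bases before the annotated start and 20 from it, with the longest such run in capitals.
Rps27, chr3:90213629-90213658, minus strand: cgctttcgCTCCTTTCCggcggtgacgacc
Rpl22l1, chr3:28805498-28805527, plus strand: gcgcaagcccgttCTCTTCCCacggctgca
Rpl12, chr2:32961702-32961731, plus strand: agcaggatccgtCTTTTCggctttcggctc
Rps2, chr17:24720053-24720082, plus strand: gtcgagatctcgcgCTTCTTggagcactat
Rpl10l, chr12:66284382-66284411, minus strand: cctccattttgcggCTggcggtgggcacgc
Rps27 had the longest run of the 5 windows (9 letters), Rpl22l1 had 8, Rpl12 and Rps2 had 6, and the window of the variant gene Rpl10l held a run of 2. Windows not printed here had shorter runs than Rpl12. Rpl39 and Rps27l had 5, Rps19 had 4, Rplp0, Rpl22 and Rpl39l had 2, and Rpl10, the counterpart of Rpl10l, had 0. The median longest run was 3.5 letters in the 62 members and 3 in the 10914 genes, so the printed windows do not stand for all members.

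The pair with the closest coding sequences among the variants was Rpl39l and its X-linked counterpart Rpl39, which lines the exit tunnel of the large subunit. Both open reading frames are 156 bases long in GENCODE M21, and they are printed because Rpl39l was among the members that changed most while Rpl39 changed far less. Capitals mark the 23 positions at which they differ (85.3% identical).
Rpl39l, chr16:10174310-10174465, plus strand: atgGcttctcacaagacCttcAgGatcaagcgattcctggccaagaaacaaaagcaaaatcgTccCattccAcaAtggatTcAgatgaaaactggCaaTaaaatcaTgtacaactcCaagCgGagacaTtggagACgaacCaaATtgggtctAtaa
Rpl39, chrX:37082701-37085127, minus strand: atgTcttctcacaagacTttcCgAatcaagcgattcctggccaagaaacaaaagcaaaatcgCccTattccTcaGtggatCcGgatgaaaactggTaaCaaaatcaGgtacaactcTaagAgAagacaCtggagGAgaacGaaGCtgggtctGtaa
The longest stretch without a difference was 38 bases, so a read of the coding sequence longer than that covers at least 1 difference. The other coding sequences were 84.8% identical for Rpl10l and Rpl10, 75.3% for Rps27l and Rps27, 74.8% for Rpl3l and Rpl3, 73.4% for Rpl22l1 and Rpl22 and 63.4% for Rpl7l1 and Rpl7.

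Ribosomal protein mRNAs made up a large share of the ES cell transcriptome as measured, and the share was lower late in induction. In the 3 libraries at 0 h the 88 genes summed to 27.8%, 28.3% and 27.6% of all TPM. The sums were 27.7%, 26.7% and 27.7% at 16 h, 26.8%, 27.1% and 26.9% at 24 h. At 48 h they were 26.2%, 26.3% and 29.0%, where the third library stood above the others. They then ranged from 24.6% to 26.3% at 72 h and from 22.6% to 23.5% at 96 h, and were 18.4%, 19.4% and 18.0% at 168 h. All libraries from 72 h on, and those at 24 h, lay below the lowest one at 0 h. Group means were 27.9% ± 0.368 (SD, n = 3) at 0 h, 22.9% ± 0.489 at 96 h and 18.6% ± 0.712 at 168 h. XEN cells lay between these last values, at 21.2% and 21.3%. Small-subunit genes went from 12.3% ± 0.167 to 8.57% ± 0.348 and large-subunit genes from 15.6% ± 0.204 to 10.1% ± 0.451 between 0 and 168 h. These are shares of the measured mRNA: fewer cells of a type and less RNA per cell cannot be told apart in bulk samples, and the amount of mRNA per cell was not measured.

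**Figure D1:**
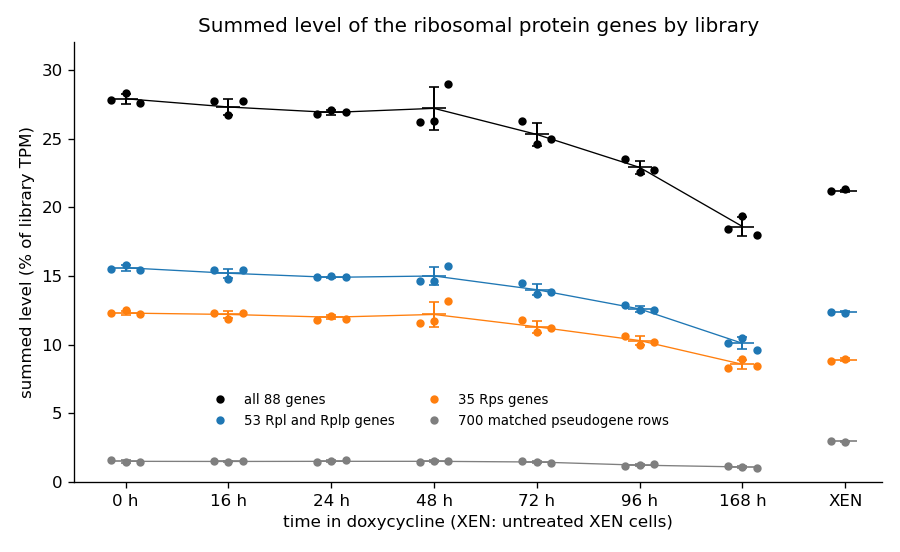
Summed level of the ribosomal protein genes as a percent of library TPM (vertical axis) in each library (points) by time in Dox and in XEN cells (horizontal axis), with group means and SD (bars). The black points for all 88 genes stay near 27.9% up to 48 h and reach 18.6% at 168 h; the gray points are 700 pseudogene rows matched to these genes, at 1.10% at 168 h and 2.97% in XEN cells.

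Single genes were very high throughout. At 0 h the 76 main genes ranged from 1239 TPM (Rpl21) to 9765 TPM (Rps27), with a median of 2931 TPM, and every one was above 1000 TPM; at 168 h they ranged from 709 TPM (Rpl30) to 6931 TPM (Rpl41), with a median of 1931 TPM. TPM are scaled by transcript length, but reads that may be shared with pseudogene rows limit how far these levels can be compared between genes. With its matched pseudogene rows added, Rpl30 was at 1272 TPM at 168 h. The 3 highest members over all groups were Rpl41, the smallest ribosomal protein, Rps27, and Rplp1 of the P stalk. The 3 lowest of those tested were Rpl3l, the pseudogene Rpl6l (2.27 TPM ± 0.983 at 0 h and 1.73 TPM ± 0.435 at 168 h) and Rpl39l.

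During the first 16 h of GATA6 induction none of the 86 members was past adjusted p in the limma fit over all genes, in either direction. For all genes tested, 7.91% were higher and 5.03% lower at 16 h, and 2.77% were called with an absolute log2 change above 1. At an unadjusted p under 0.05, 3 members were lower and none higher, while 24.7% of all genes had such a p; a fit on the 0 h and 16 h libraries alone put 2 members past adjusted p. The smallest adjusted p belonged to the variants Rpl39l and Rpl10l: Rpl39l went from 46.7 TPM ± 9.09 to 27.1 TPM ± 0.617 (adjusted p = 0.0676) and Rpl10l from 54.6 TPM ± 6.41 to 39.5 TPM ± 1.06 (adjusted p = 0.0985). For both, all 3 libraries at 16 h lay below the 3 at 0 h. The median log2 change of the main genes was -0.02 at 16 h and -0.04 at 24 h.

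At 48 h changes of the main genes were small. The share of members lower past adjusted p was near that of all genes, and the share higher was below it. Of the 86 members 20 were lower (23.3%, against 26.1% of all genes) and 5 higher (5.81%, against 27.7% of all genes), with a median log2 change of -0.05 in the 76 main genes. Those higher included Rplp0, Rps12, Rps15 and Rps19, each by 0.20 to 0.23 on the log2 scale. Rps15, a protein of the small-subunit head, read 3929, 3943 and 4068 TPM at 0 h and 4334, 4603 and 5086 TPM at 48 h, without overlap (log2 change 0.23, SE 0.06, adjusted p = 0.00178). Only Rpl10l and Rpl39l moved by more than 1 on the log2 scale, 2 of 86 (2.33%) against 16.4% of all genes. The number of members past adjusted p went from 25 to 14 without the second 0 h library, to 15 without the second 48 h library, and to 3 with no filter on low values, where Rps15 no longer passed.

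By 168 h nearly every member had fallen, most main genes by a similar modest amount. Of the 86 members 80 were lower (93%, against 33.9% of all genes) and 2 higher (2.33%, against 41.1% of all genes). The median log2 change of the 76 main genes was -0.65, a ratio of 0.639, while the median over all 15057 genes was 0.09. The main genes kept close together: the middle 50% of them spanned 0.30 on the log2 scale, against 1.55 for all genes. Only 9 members were called with the minimum of 1 on the log2 scale (10.5%, against 39.1% of all genes). Rescaling by median of ratios moved the median of all genes to -0.05 and that of the main genes to -0.83, with 82 members lower, none higher and 22 called. With it the share of higher genes among all genes called went from 57.7% to 49.5%. The share of all genes called under this rescaling is not given here. Medians of the small- and large-subunit genes were alike, -0.63 over 30 genes and -0.65 over 46. Members with and without a TOP run of at least 5 letters also had medians alike, -0.64 over 29 and -0.67 over 33.

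**Figure D2:**
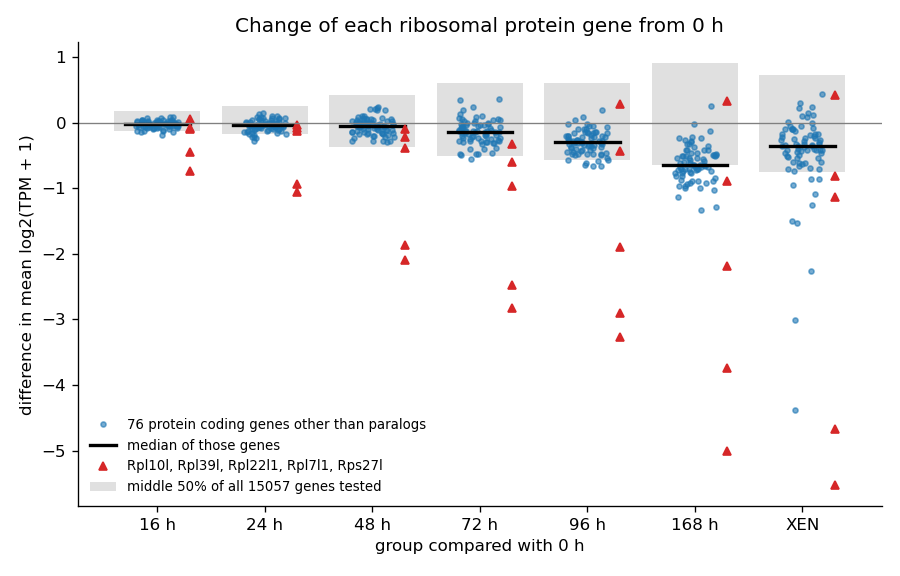
Difference in mean log2(TPM + 1) from 0 h (vertical axis) for each group (horizontal axis), for the 76 main ribosomal protein genes (blue points, black bar at their median) and 5 variant genes (red triangles), over the middle 50% of all 15057 genes tested (gray). The blue points move down together to a median of -0.65 at 168 h, and 2 of the red triangles fall from 16 h on, to -5.00 for Rpl10l and -3.73 for Rpl39l at 168 h.

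The P stalk, a flexible arm of the large subunit that recruits the translation factors, fell late and together. Rplp0, its base, read 2637, 2546 and 2702 TPM at 0 h, 2962, 3026 and 3132 TPM at 48 h and 1576, 1696 and 1745 TPM at 168 h. It was thus higher at 48 h in every library (log2 change 0.21, SE 0.05, adjusted p = 7.18e-04) and lower at 168 h in every library (log2 change -0.65, SE 0.05, adjusted p = 1.52e-10). Rplp1 read 9283, 9145 and 9267 TPM at 0 h and 4800, 4896 and 4757 TPM at 168 h (log2 change -0.94, SE 0.05, adjusted p = 2.51e-12), and Rplp2 fell from 2931 TPM ± 249 to 1824 TPM ± 155 (log2 change -0.68, SE 0.08, adjusted p = 5.08e-07). Rpl5 and Rpl11, which carry the 5S ribosomal RNA and bind MDM2 when free of the ribosome, fell from 1283 TPM ± 38.9 to 810 TPM ± 94.1 and from 2434 TPM ± 109 to 1828 TPM ± 156. Their log2 changes were -0.67 (SE 0.07, adjusted p = 1.27e-07) and -0.42 (SE 0.07, adjusted p = 3.01e-05).

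Among the main genes the largest falls belonged to Rpl3, Rpl12, Rps20 and Rpl10a, the only 4 past 1 on the log2 scale. Rpl3, which reaches into the peptidyl transferase centre, read 2119, 2151 and 1976 TPM at 0 h and 923, 866 and 696 TPM at 168 h (log2 change -1.34, SE 0.07, adjusted p = 2.95e-12). Its fall was already visible in the means of 1851 TPM ± 40.4 at 48 h and 1316 TPM ± 28.2 at 96 h. Rpl12, at the foot of the P stalk, read 2538, 2561 and 2346 TPM at 0 h and 1081, 1059 and 920 TPM at 168 h (log2 change -1.28, SE 0.06, adjusted p = 9.83e-13). Neither gene's groups overlapped.

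The exceptions were few. Rps19, whose human counterpart is the gene most often mutated in Diamond-Blackfan anaemia, was the only main gene to be higher at 168 h: 3215, 3251 and 3004 TPM against 2639, 2666 and 2642 TPM (log2 change 0.25, SE 0.06, adjusted p = 9.28e-04). Its level had already been 3387 TPM ± 298 at 72 h. The rise of Rps19 kept its direction but not its call with median-of-ratios rescaling (0.07) or after removal of the trend with gene length (0.07). Rps3 and Rps28 were among the main genes that did not pass, with log2 changes of -0.13 and -0.23. Of the other members the pseudogene Rpl6l did not pass.

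The variant genes, each beside its main counterpart, spread far more widely than the main genes. Of the 7 (the pseudogene Rps4l included), 6 were lower at 168 h past adjusted p, against 33.9% of all genes, with a median log2 change of -1.33. By more than 1 on the log2 scale 5 of them were lower, while 39.1% of all genes were called in either direction. Rpl3l, among those 5, was near the lower limit already at 0 h (1.32 TPM). All 7 counterparts were lower, with a median of -0.58.

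Rpl10l, an autosomal copy of the X-linked Rpl10, fell without a pause. Its libraries read 49.0, 53.2 and 61.6 TPM at 0 h, 38.9, 38.9 and 40.7 at 16 h, 23.5, 24.8 and 28.8 at 24 h, 13.2, 13.3 and 9.86 at 48 h. At 168 h they read 0.855, 0.335 and 1.07 TPM, and XEN cells had 0.344 and 0.0809 TPM. No 2 neighbouring groups up to 48 h overlapped. The log2 change on log2(TPM + 1) was -2.09 at 48 h (SE 0.17, adjusted p = 6.13e-09) and -5.00 at 168 h (SE 0.17, adjusted p = 4.06e-15). Rpl10 itself, a protein that joins the large subunit late in its assembly, was at 4143 TPM ± 125 at 0 h and 3321 TPM ± 163 at 168 h (log2 change -0.32, SE 0.06, adjusted p = 5.94e-05).

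Rpl39l followed the same course from a like level. It read 51.7, 52.1 and 36.2 TPM at 0 h, 27.7, 26.5 and 27.2 at 16 h, 12.8, 9.01 and 14.5 at 48 h. At 168 h it read 2.24, 1.30 and 4.93 TPM, with 1.23 and 0.546 TPM in XEN cells. Its log2 change was -1.87 at 48 h (SE 0.26, adjusted p = 5.49e-06) and -3.73 at 168 h (SE 0.26, adjusted p = 1.18e-10). Rpl39, the counterpart printed above, was at 2171 TPM ± 101 and 1499 TPM ± 126 (log2 change -0.54, SE 0.09, adjusted p = 1.85e-05). At 0 h the level of Rpl39 was thus far above that of its variant, and the variant's fall adds little to the summed share.

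Rpl22l1, with the highest 0 h level of the variants that fell, fell in a narrow span. Its libraries read 1017, 1173 and 1143 TPM at 0 h, 884, 862 and 1133 at 48 h, 620, 600 and 491 at 72 h, 263, 318 and 312 at 96 h. At 168 h they read 274, 264 and 198 TPM. The 48 h and 72 h libraries did not overlap, nor did those of 72 h and 96 h. The log2 change was -2.19 at 168 h (SE 0.13, adjusted p = 1.46e-11). XEN cells had 524 and 484 TPM, above 168 h (log2 change 1.05, SE 0.15, adjusted p = 1.04e-05) and below 0 h (log2 change -1.14, SE 0.15, adjusted p = 1.08e-06). Rpl22, its RNA-binding counterpart, was at 3560 TPM ± 238 at 0 h and 2516 TPM ± 134 at 168 h (log2 change -0.50, SE 0.07, adjusted p = 3.38e-06).

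Rps27l, a paralog of Rps27 known as a p53 target, was the single variant that was higher at 168 h. It read 1783, 1899 and 1637 TPM at 0 h, 1194, 1155 and 2043 TPM at 72 h, and 2107, 2049 and 2579 TPM at 168 h; the 72 h libraries were split, with the third above all at 0 h. The log2 change at 168 h was 0.34 (SE 0.14), just past the threshold (adjusted p = 0.0433). That call was lost with the replicate block (adjusted p = 0.0504), with median-of-ratios rescaling (log2 change 0.15), and without the third 168 h library (0.23), the first 0 h library (0.34) or the third 0 h library (0.28). Rps27 went from 9765 TPM ± 539 to 6592 TPM ± 1119 (log2 change -0.58, SE 0.12, adjusted p = 2.75e-04).

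Rpl7l1, a nucleolar relative of Rpl7, fell from 187 TPM ± 8.23 to 101 TPM ± 1.28 (log2 change -0.89, SE 0.12, adjusted p = 1.51e-06), close to the change of Rpl7 itself (-0.81, SE 0.04, from 2652 TPM ± 18.5 to 1516 TPM ± 74.1). Rpl3l, a striated muscle variant of Rpl3, was near the lower limit throughout, at 1.32 TPM ± 0.317 at 0 h and 0.0473 TPM ± 0.041 at 168 h, and was listed at 0 in both XEN libraries. Rps4l, annotated as a pseudogene but at 928, 869 and 998 TPM at 0 h, fell to 387, 318 and 411 TPM at 168 h (log2 change -1.33, SE 0.11, adjusted p = 1.08e-09) and to 145 and 134 TPM in XEN cells. Its reads may be shared with Rps4x, which went from 2727 TPM ± 99.4 to 1674 TPM ± 123 and was at 2882 TPM ± 22.4 in XEN cells.

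**Figure D3:**
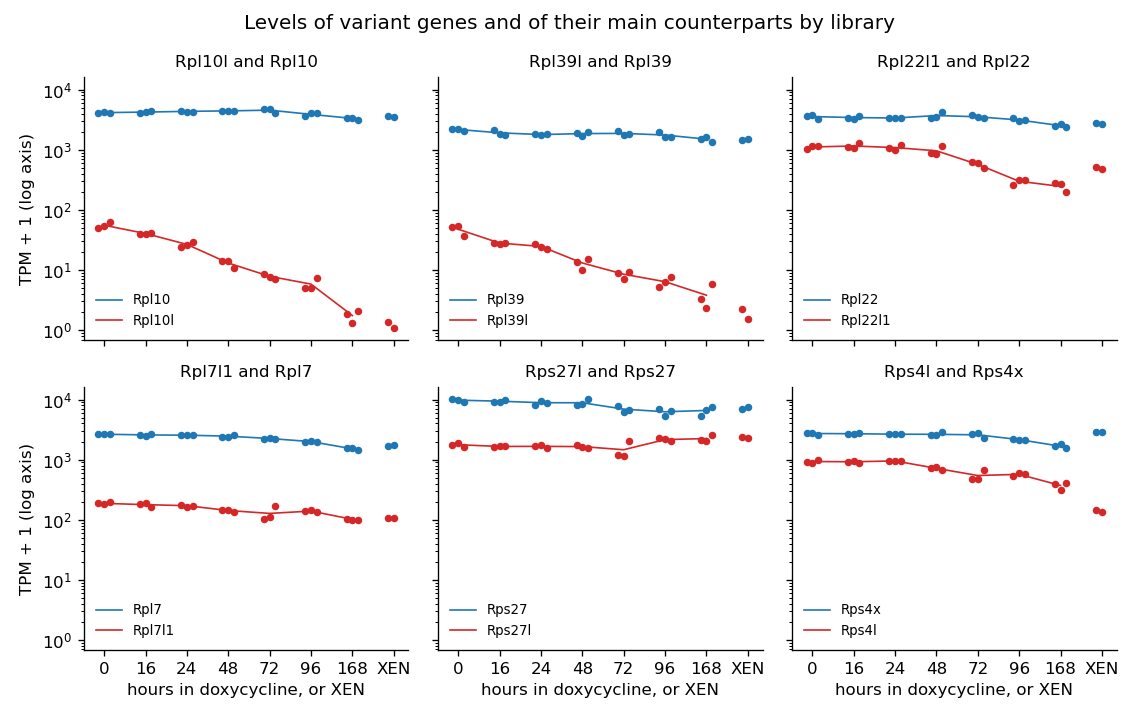
TPM + 1 on a log axis (vertical) in each library (points; lines join means) by hours in Dox or in XEN cells (horizontal) for 6 variant genes (red) and their main counterparts (blue). Rpl10l and Rpl39l go from 54.6 and 46.7 TPM at 0 h to 0.755 and 2.82 TPM at 168 h, while Rpl10 and Rpl39 stay above 1000 TPM.

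In XEN cells most members were lower than at 0 h, and more were higher than lower when set against 168 h. Against 0 h, 65 of 86 members were lower (75.6%, against 36.2% of all genes) and 6 higher (6.98%, against 35% of all genes), and 14 were called with the minimum of 1 on the log2 scale (16.3%, against 37.6% of all genes). Against 168 h, 45 were higher (52.3%, against 17.8% of all genes), 13 lower (15.1%, against 32.2% of all genes) and 9 called with the minimum (10.5%, against 13.9% of all genes; 3 members with matched pseudogene rows added). The median log2 change of the 76 main genes was -0.35 against 0 h and 0.27 against 168 h. With median-of-ratios rescaling the last value was 0.44, with 60 members higher and 11 lower, and the share of higher genes among all genes called went from 34% to 46.5%. The 3 P stalk genes were higher in XEN cells than at 168 h, Rplp0 by 0.47 (SE 0.05, adjusted p = 5.38e-07; 0.20 with its pseudogene rows added), Rplp1 by 0.32 and Rplp2 by 0.33, and Rps4x was higher by 0.79 (SE 0.07, adjusted p = 5.06e-08).

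A few members were far lower in XEN cells, and for these a pseudogene row was far higher. Rps2, which lies near the mRNA entry of the small subunit, read 3005, 2682 and 2567 TPM at 168 h and 229 and 218 TPM in XEN cells (log2 change -3.61, SE 0.06, adjusted p = 3.27e-19). The row of Rps2-ps13, a processed copy of Rps2, read 0.651, 0 and 0.821 TPM at 168 h and 3118 and 3112 TPM in XEN cells. Rps18 was at 3137 TPM ± 136 at 168 h and 723 TPM ± 12 in XEN cells, while Rps18-ps6 averaged 36.8 and 3002 TPM. With smaller falls, the same held for Rps24 (4243 and 2584 TPM) with Rps24-ps3 (11.5 and 3942 TPM) and for Rpl21 (735 and 258 TPM) with Gm10163 (10.3 and 1246 TPM). Rpl26 was only moderately lower (2931 and 2143 TPM), with Gm15772 at 20.1 and 1540 TPM. These rows were chosen after their values were seen, as the 10 pseudogene rows with the largest gain, which together gained 1.67% of TPM. The pseudogene rows matched to any member by name or shared sequence, 700 in all, summed to 1.10% ± 0.0618 of TPM at 168 h and 2.97% ± 0.0259 in XEN cells.

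With each member's matched pseudogene rows added to it, a setting chosen after seeing the data, the values in XEN cells lay closer together. Rps2 was then at 3391, 3035 and 2926 TPM at 168 h and 4046 and 4015 TPM in XEN cells, higher (log2 change 0.37, SE 0.06, adjusted p = 3.33e-05) in place of lower. Rps18 changed to 0.42 (SE 0.05), Rps24 to 0.62 (SE 0.07), Rpl34 to 0.23 (SE 0.07), Rpl26 to 0.32 (SE 0.07) and Rpl21 to 1.45 (SE 0.06) on the log2 scale, all past adjusted p. The lowest change of the 76 main genes against 168 h was -0.20 in place of -3.61, 69 of 76 were above 0, and the median was 0.29. The largest gain of a main gene in the separate rows, that of Rps3a1 (1.04, SE 0.06, adjusted p = 5.01e-11, from 1055 TPM ± 81.7 to 2160 TPM ± 25.5), shrank to 0.07 (SE 0.06, adjusted p = 0.35). Rps3a2 and Rps3a3, near-identical copies of Rps3a1 that are annotated as pseudogenes, were at 752 TPM ± 70.6 and 289 TPM ± 17.2 at 168 h and at 28.3 TPM ± 2.26 and 6.99 TPM ± 1.63 in XEN cells. Rpl30, the next largest, went from 709 TPM ± 65.4 at 168 h to 1359 TPM ± 39.8 in XEN cells by its own row (log2 change 0.94), and was at 0.12 and no longer past adjusted p with its pseudogene rows. Against 0 h, adding the rows gave 5 called members in place of 14, and Rpl21 had the highest change of the main genes (0.71, SE 0.06). The CD1 strain and the XEN cell type cannot be told apart in these values.

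**Figure D4:**
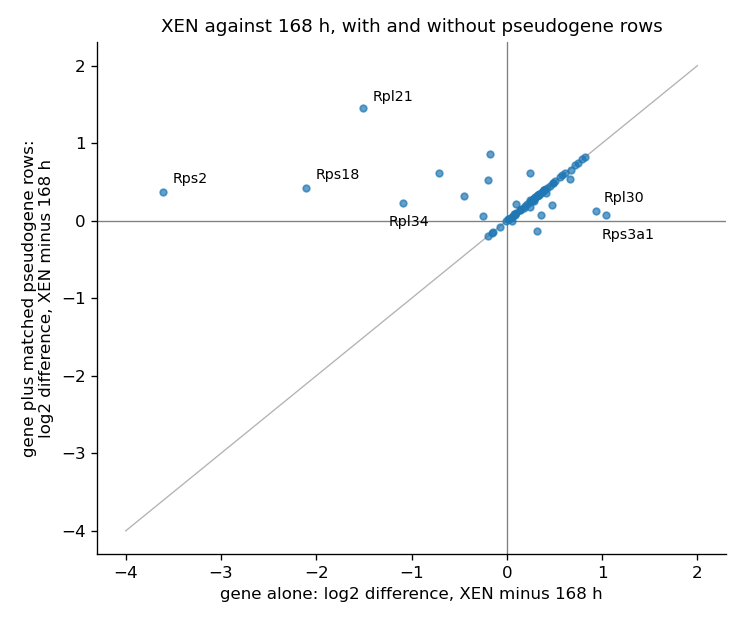
Log2 difference between XEN cells and 168 h cells for each of the 76 main ribosomal protein genes, from its own row (horizontal axis) and with its matched pseudogene rows added (vertical axis); the diagonal marks equal values. Most points lie on the diagonal above 0, and Rps2, Rps18, Rpl21 and Rpl34 lie far to its left, at -3.61, -2.11, -1.51 and -1.09 alone and above 0 with the rows added.

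Adding pseudogene rows made little difference between ES cells and 168 h cells, which are of the same line: the median log2 change of the main genes at 168 h was -0.64 and 75 of 76 were below 0. The summed share of members and pseudogene rows was 29.4% ± 0.381 at 0 h, 19.7% ± 0.727 at 168 h and 24.2% ± 0.0657 in XEN cells.

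Most genes outside the symbol pattern that belong to the same ribosome were lower too. Of 6, 5 were lower at 168 h and 1 higher, with a median log2 change of -0.47. Of all genes 33.9% were lower and 41.1% higher at 168 h. Rpsa averaged 2086 TPM (0 h) and 1349 TPM (168 h) and Rack1 1796 and 1258 TPM. Of the 40 listed ribosome assembly factors 38 were lower at 168 h and 2, Sbds and Riok1, were higher, with a median of -1.23. By more than 1 on the log2 scale 28 were lower, while 39.1% of all genes were called in either direction. Among the largest falls were those of Mdn1, the ATPase that strips assembly factors from the large subunit (71.1 TPM ± 7.11 to 8.34 TPM ± 1.12, log2 change -2.95), Dkc1, the pseudouridine synthase of ribosomal RNA (179 TPM ± 4.2 to 27.3 TPM ± 2.81, -2.67), and Heatr1 of the small-subunit processome (103 TPM ± 2.72 to 22.2 TPM ± 1.08, -2.16); that of Npm1, a nucleolar chaperone, was as large (4319 to 965 TPM, -2.16). At 48 h, 22 of the 40 were already lower (26.1% of all genes were), with a median of -0.39. In XEN cells 30 were higher than at 168 h (17.8% of all genes) and none lower (32.2% of all genes), with a median of 0.68. Assembly factors thus moved in the same directions as the main ribosomal protein genes, and further; the difference between the lists was not tested.

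For the lists that follow, the shares of all genes past adjusted p at 168 h are 33.9% lower and 41.1% higher. RNA polymerase I, which makes the large ribosomal RNA precursor, had 11 of its 14 tested genes lower at 168 h and none higher. Polr1b fell from 63.4 to 15.3 TPM, Polr1a, the largest subunit, from 46.4 to 17.3 TPM, and the initiation factor Ubtf from 141 to 55.8 TPM (log2 changes -1.98, -1.38 and -1.33). Of 12 translation factors whose mRNAs are known to carry the TOP start 8 were lower and 1 higher, with a median log2 change of -0.68. Eif3e and Eif3l passed the minimum of 1 on the log2 scale (-1.09 and -1.06), while Eef2, the translocation factor, was the gene that was higher (1346 to 1762 TPM, log2 change 0.39). Of 77 mitochondrial ribosomal protein genes, which serve a separate ribosome, 50 were lower and 12 higher, with a median of -0.37; Mrpl15 (200 to 64.3 TPM), Mrps31 (53.3 to 20.4 TPM) and Mrpl45 (82.5 to 33.2 TPM) fell most.

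**Figure D5:**
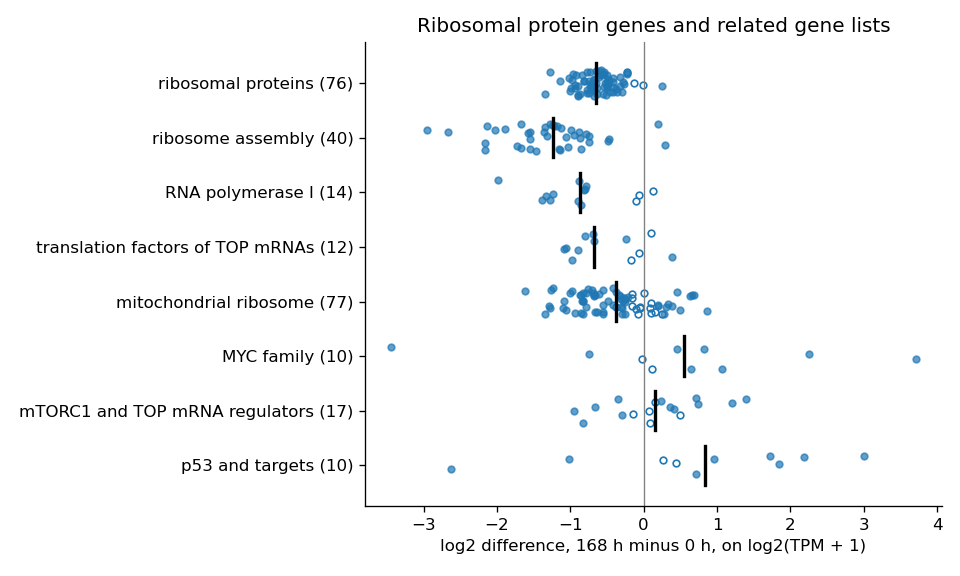
Log2 difference between 168 h and 0 h (horizontal axis) for each gene of 8 lists (rows, number of tested genes in brackets); filled points passed adjusted p, open points did not, and the bars are medians. The medians are -0.65 for the 76 main ribosomal protein genes, -1.23 for ribosome assembly, -0.87 for RNA polymerase I and -0.37 for the mitochondrial ribosome, and those of the 3 regulator lists are above 0.

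Lists of known regulators of ribosome production held changes in both directions, as did all genes (41.1% higher and 33.9% lower). In the MYC family 6 of 10 genes were higher and 2 lower at 168 h. Myc itself was at 29.9 TPM ± 4.33 at 0 h, higher at 16 h (60.4 TPM ± 2.68), and at 10.7 TPM ± 0.986 at 48 h. At 168 h it was at 1.84 TPM ± 0.381 (log2 change from 0 h -3.44, SE 0.14, adjusted p = 6.58e-14), and in XEN cells at 18.3 TPM ± 1.45. Mxd4 and Mxi1, MAX partners that oppose MYC, rose from 2.10 to 41.0 TPM and from 18.6 to 93.2 TPM between 0 and 168 h. Of 17 genes of mTORC1 and its TOP mRNA regulators 7 were higher and 5 lower, shares near those of all genes. Akt1s1, an inhibitor of mTORC1, rose from 55.3 to 148 TPM and the amino acid sensor Sesn2 from 52.4 to 123 TPM, while Larp1 fell from 76.1 to 42.6 TPM (log2 change -0.82, SE 0.06, adjusted p = 5.21e-10), Eif4ebp1, a translation repressor, from 170 to 87.4 TPM (-0.95) and the kinase Mtor from 21.5 to 16.5 TPM (-0.35). Of 10 genes for p53 and its targets 6 were higher and 2 lower: Trp53 fell from 386 to 62.1 TPM, and its targets Cdkn1a and Ccng1 rose from 40.9 to 341 TPM and from 93.2 to 431 TPM. No relation between any of these genes and the members was tested.

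The genes outside the members whose group means were most like the mean profile of the main genes, by Pearson's r over the 8 groups, were Exosc7 (0.991), Smad6 (0.988), Hmga1b (0.985), St13 (0.984) and Haus1 (0.984). The groups share the 0 h cells and a course in time, so these values describe shape only. Exosc7, a subunit of the RNA exosome, averaged 107 TPM (0 h), 104 TPM (48 h), 59.2 TPM (168 h) and 69.8 TPM (XEN).

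The second experiment asked whether lowering Oct4 during the first 48 h of induction alters the transcriptome. Oct4 (Pou5f1) was lower in the siOct4 libraries, 331 TPM ± 44.4 (SD, n = 6) against 957 TPM ± 183 in siCTL, without overlap (log2 change -1.52, SE 0.14, adjusted p = 5.21e-05). The table of this experiment lists only genes that the study had called responsive to GATA6, 8 members among them: Rpl3, Rpl10a, Rpl12, Rps20, Rpl10l, Rpl22l1, Rpl39l and Rps4l. Their overlap with the members that fell most at 168 h is thus fixed by that choice and is no result. None of the 8 was called, against 2.67% of the 6264 genes tested, none had an unadjusted p under 0.05, and the smallest adjusted p was 0.874. Rpl12 ranged from 1820 to 4097 TPM with a median of 3222 TPM in siCTL and from 2323 to 4637 TPM with a median of 3566 TPM in siOct4 (log2 change 0.11, SE 0.21). Rpl39l ranged from 8.75 to 28.2 TPM in siCTL and from 8.66 to 20.2 TPM in siOct4 (log2 change -0.12, SE 0.27). Rpl22l1 ranged from 944 to 2024 TPM in siCTL and from 823 to 2310 TPM in siOct4. In all 8 the groups overlapped. The fit did not pair the libraries and gave standard errors of 0.13 to 0.27 on the log2 scale. In that fit changes of the size seen between 0 and 48 h in the main genes would not have been detectable.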

How the data were processed

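Libraries were poly(A) selected and stranded. Per the labels the authors trimmed reads with cutadapt, mapped them to mm10 with STAR and quantified genes with RSEM, and they deposited TPM (each library sums to 1000000, so read depth is unknown and no counting error can be given); versions are not given in the sources used here. Per the study's methods, principal component outliers were omitted before conversion to TPM. The methods do not say whether these were libraries. The siRNA table holds the genes the study called GATA6 responsive, 274527 to 355895 TPM per library.

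From these values log2(TPM + 1) was fitted with limma 3.58.1 (R 4.3.3; trend and robust), all 23 induction libraries in 1 model and the 12 siRNA libraries in another, over genes whose mean reached 1 TPM in any group (15057 and 6264). Fold changes on this scale understate the change of low genes. Benjamini-Hochberg adjusted p under 0.05 was used alone, by direction, and with an absolute log2 change above 1 (0.5 for siRNA), the study's minimum. Per the study's methods the induction replicates are independent, 3 per group and 2 for XEN cells, and the siRNA libraries are 6 independent experiments. Symbols on more than 1 row (60) were taken from the row with the highest mean.

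In the siRNA experiment same-numbered libraries deviated together (correlations of 0.24 to 0.71 over 6 pairs), so the numbers pair them; the pairing changed no call there. Coordinates and coding sequences are from GENCODE M21 (GRCm38, mm10). Pseudogene rows were matched to a member by name or by at least 50% of 15-base words. The members and lists were chosen with earlier results of these data known. Genes named are the variants with their counterparts, P stalk and 5S genes, the highest and lowest members, the largest changes past adjusted p, and up to 3 genes per list; others were chosen after their values were seen. The fit was tested on simulated data. Alternatives are in the closing section. Some single genes are counted in the totals but not reported here by name.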

Additional observations from a re-analysis of the deposited data

Results flagged for a closer look

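In the siRNA experiment Rpl3 stood apart in the fourth siCTL library, at 1576 TPM against 2290 to 2515 TPM in the other 5. It was the single value so marked among 16 sets of 6 screened (8 members in 2 groups), where chance alone marks about 0.8. The same library was also the lowest of its group for Rpl10a (1356 TPM), Rpl12 (1820 TPM), Rps20 (2348 TPM) and Rpl22l1 (944 TPM).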

How the results depend on the processing

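TPM are shares, bulk libraries cannot separate cell number from RNA per cell, and XEN cells differ in strain and culture. Over the members named by gene, 474 alternative values kept direction and side of the threshold, 27 lost the call and 6 reversed. With median-of-ratios rescaling the median log2 change of the 76 main genes was -0.05 at 16 h, -0.83 at 168 h and 0.44 for XEN against 168 h, 22 members were called at 168 h, and the summed share was 16.8% at 168 h and 21.5% in XEN cells. With the gene length trend removed the medians were -0.05 at 16 h, -0.58 at 168 h and -0.29 for XEN against 0 h. With matched pseudogene rows added (chosen after seeing the data) 5 members were called for XEN against 0 h and 3 against 168 h, Rps2 reversed to 0.37, and the summed share was 19.7% at 168 h and 24.2% in XEN cells; with rescaling as well these were 5 and 4 members, 20 at 168 h, 1 past adjusted p at 16 h, medians of -0.05, -0.83 and 0.46 (16 h, 168 h, XEN against 168 h), and 0.55 for Rps2. Genes outside the name pattern brought the share to 19.7% at 168 h and 22.6% in XEN cells. At 48 h, 25 members were past adjusted p, 3 with no filter on low values and 14 at adjusted p under 0.01; at 16 h, 2 were past it in a fit on the groups compared only. Rescaling turned siRNA changes that had passed no test to 0.02 for Rpl39l, 0.06 for Rpl22l1, 0.10 for Rpl10l and 0.14 for Rpl3. Where no reason is given the cause was not tested.

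Leaving out 1 library at a time gave 0 to 1 members past adjusted p at 16 h, 14 to 26 at 48 h, 81 to 82 at 168 h, 62 to 67 for XEN against 0 h and 48 to 61 for XEN against 168 h; the 1 at 16 h came without the third 0 h library. Rps27l in XEN cells against 0 h lost its call without the third 0 h library (0.36) or either XEN library (0.40 and 0.44), where the lone XEN library is assumed to vary like the other groups. In the induction series same-numbered libraries had correlations of -0.06 to 0.13, so they share only a number. The replicate block gave 0, 22, 81, 68 and 59 members past adjusted p in the order above and ended, among the genes named, the call of Rps27l at 168 h (0.34).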
